A study of Mus musculus with 4 samples.

Results

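Genes of glucocorticoid signalling were followed in fibroblasts isolated from tumours of the mouse mammary gland. The 9 genes, of 22456 in the deposited table, are a named list matched by symbol: the receptor gene Nr3c1, the hormone-activating enzyme gene Hsd11b1, the receptor-induced genes Fkbp5, Tsc22d3, Klf9, Zbtb16 and Sgk1, and the metallothionein genes Mt1 and Mt2. They were chosen by name, with their GSK minus DMSO differences in these 4 libraries already known, to ask whether Sgk1 moves with the others. Their differences are therefore given as a description and without p-values, and whether a member passed a threshold is no independent evidence. The GSK libraries (n = 2) came from tumours of 4T1 cells, a carcinoma line from a Balb/c mammary gland, kept for 5 days in 5 µM of the compound GSK269962A before injection. The DMSO libraries (n = 2) came from tumours of 4T1 cells pre-treated with the solvent DMSO. All tumours grew in the mammary fat pad of Balb/cAnN mice for 8 days, and the compound was given to the cancer cells before injection, not to the mice, as far as the labels say. The fibroblasts are the cells left after CD45, CD31, CD326 and human CD2 bearing cells were removed on magnetic columns, so any mesenchymal cell without these markers remained. The labels do not say whether libraries come from separate animals, so SD and SE measure only the spread between these samples.

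Glucocorticoids are steroid hormones that enter cells and bind the glucocorticoid receptor, the product of Nr3c1, which then moves into the nucleus and binds DNA at palindromic response elements. In many cells the enzyme 11-beta-hydroxysteroid dehydrogenase type 1, the product of Hsd11b1, regenerates active hormone from its inert keto form inside the cell. Genes such as Fkbp5 and Tsc22d3 are induced by the bound receptor in many cell types and are used as readouts of its activity, while Sgk1 and the metallothionein genes also answer to serum, osmotic stress, heavy metals and cell stress.

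The promoter sequences of Sgk1, Mt1 and Mt2 are shown first, because these 3 genes were the members that were lower in GSK fibroblasts. Each is the 250 bases before a transcription start in RefSeq on GRCm38.p6, in lower case, with matches to the searched motifs in capitals: the palindromic glucocorticoid response element (AGAACA, any 3 bases, TGTTCT), a looser form (GNACA, any 3 bases, TGTNC), and the core of the metal response element, TGCACNC or TGCGCNC, all on both strands. The looser form is contained in the palindromic one. The windows are chr10:21993640-21993889 for Sgk1, chr8:94178839-94179088 for Mt1 and chr8:94172368-94172617 for Mt2, all on the plus strand.
Sgk1: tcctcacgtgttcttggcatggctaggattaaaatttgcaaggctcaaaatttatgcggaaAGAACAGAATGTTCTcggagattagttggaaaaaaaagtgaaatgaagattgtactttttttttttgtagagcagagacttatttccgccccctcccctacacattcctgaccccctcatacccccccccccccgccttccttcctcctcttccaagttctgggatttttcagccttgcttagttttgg
Mt1: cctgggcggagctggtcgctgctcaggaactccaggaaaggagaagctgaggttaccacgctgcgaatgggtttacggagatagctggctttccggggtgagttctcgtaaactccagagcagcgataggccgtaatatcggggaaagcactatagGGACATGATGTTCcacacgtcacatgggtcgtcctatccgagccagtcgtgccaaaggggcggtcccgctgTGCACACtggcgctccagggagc
Mt2: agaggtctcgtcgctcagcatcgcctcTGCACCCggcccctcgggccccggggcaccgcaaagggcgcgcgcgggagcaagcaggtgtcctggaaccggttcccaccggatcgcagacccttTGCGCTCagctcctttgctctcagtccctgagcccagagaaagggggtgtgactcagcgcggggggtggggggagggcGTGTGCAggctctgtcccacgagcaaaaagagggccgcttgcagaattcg
The Sgk1 stretch precedes 1 of 6 annotated Sgk1 starts (position 21993890 on chromosome 10) and is intronic to longer Sgk1 transcripts in GENCODE M21. It holds the palindromic element at -189 to -175 counted from the start, spelled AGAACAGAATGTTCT. That element occurs in 3 of 32851 RefSeq windows of 300 bases, 250 before and 50 after a start (0.00913%). Of the 6 Sgk1 windows only the one shown held it or the looser form, and the share is per window, not per gene. The looser form occurs in 0.475% of those windows, Mt1 among them, at -94 to -82 from its start. A metal response core occurs in 25.7% of windows, and at 3 or more positions in 1.97%: the Mt1 window has 3 and the Mt2 window 4, of which 2 and 1 lie after the start, outside the stretches shown. The capitals GTGTGCA in the Mt2 stretch are a match read on the minus strand. RefSeq windows matched 7 of the 9 genes, the others being Nr3c1 and Zbtb16. In the windows of Fkbp5 (1), Klf9 (1) and Tsc22d3 (3) neither form of the response element nor a metal response core was found. The window of Hsd11b1, whose difference was -0.03, held a metal response core at -237 to -231. So did the Sgk1 window of the start at 21994666, at 12 to 18. The hexamer AGAACA, present in 19.0% of windows, occurred in 1 of the Tsc22d3 windows and in 3 of the 6 Sgk1 windows. These are letter matches only, and which Sgk1 start was used in these cells cannot be read from gene-level values.

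The values are the authors' normalised log2 expression, and read counts were not analysed here, so the depth of the libraries is unknown. The tissue label was checked against marker genes: 10 fibroblast markers averaged 15.03 and 14.99 (log2) in GSK libraries and 15.12 and 15.08 in DMSO libraries, and the collagen gene Col1a1 was highest, at 20.51. Neutrophil markers averaged 0.60 or less in every library. The epithelial marker Epcam, at 0.32, was the lowest of its list, and Krt19, at 8.82, the highest. Macrophage markers averaged 3.71 to 3.75 and T and NK cell markers 2.05 to 2.17 over the libraries. The highest of these were Csf1r, a macrophage marker at 8.28, and Cd3e, a T cell marker at 8.62. All 9 glucocorticoid pathway genes passed the filter on low values, a mean of at least 3.32 (log2 of 10), which left 14548 genes tested. Zbtb16, at 4.40, was the closest to it. limma, fitted over all these genes with the group as the only term, called 41 of them (0.282%) at a threshold of 0.05 on the adjusted p.

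The receptor and the enzyme that supplies its ligand were expressed at much the same level in both groups. Nr3c1 (ENSMUSG00000024431, GRCm38 chromosome 18, 39410545 to 39519421) was at 10.61 and 10.52 (log2) in GSK libraries and at 10.66 and 10.55 in DMSO libraries. The groups overlapped, and their means differed by -0.04 ± 0.06 (log2, GSK minus DMSO, with the moderated standard error of limma). Hsd11b1 (ENSMUSG00000016194, chromosome 1, 193221634 to 193264075) was at 11.13 and 10.67 in GSK libraries and at 11.02 and 10.84 in DMSO libraries. Both the highest and the lowest value of Hsd11b1 came from GSK libraries, and the difference was -0.03 ± 0.15. Hsd11b1 had the widest gap between libraries of 1 group among the 9 genes, 0.46 in GSK, and its difference ranged from -0.26 without GSK library 1 to 0.21 without GSK library 2. Its locus overlaps Lamb3, a laminin chain gene on the opposite strand at 3.76 (log2), and no source used here says whether counting kept strands apart.

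The receptor-induced genes other than Sgk1 showed differences of 0.20 or less in size, beside a median size of 0.049 over all genes tested. Fkbp5 (ENSMUSG00000024222, chromosome 17, 28399094 to 28517527) encodes a co-chaperone that lowers the receptor's affinity for hormone and so acts as a feedback inhibitor. It was at 10.19 and 10.07 in GSK libraries and at 10.10 and 10.06 in DMSO libraries, a difference of 0.05 ± 0.05 with overlapping groups. Tsc22d3 (ENSMUSG00000031431, chromosome X, 140539528 to 140600659) encodes GILZ, a leucine zipper protein that mediates anti-inflammatory actions of glucocorticoids. It was at 7.84 and 7.99 in GSK libraries and at 7.65 and 7.77 in DMSO libraries, so both GSK libraries lay above both DMSO libraries, by 0.07 at the closest. The difference of Tsc22d3 was 0.20 ± 0.07, opposite in sign to that of Sgk1 and larger in size than in 93.3% of all genes tested. Klf9 (ENSMUSG00000033863, chromosome 19, 23141226 to 23168134) encodes a Krüppel-like transcriptional repressor induced by glucocorticoids and thyroid hormone. It was at 10.99 and 10.82 in GSK libraries and at 10.81 and 10.78 in DMSO libraries. The groups were separated by 0.01, and the difference was 0.11 ± 0.06, larger in size than in 78.9% of all genes tested. Zbtb16 (ENSMUSG00000066687, chromosome 9, 48654297 to 48836222) encodes the zinc finger repressor PLZF. It was at 4.41 and 4.38 in GSK libraries and at 4.39 and 4.44 in DMSO libraries, with overlapping groups and a difference of -0.03 ± 0.03. Fkbp5 transcripts share a stretch of 177 bases at 97.2% identity with Atg2a, an autophagy gene at 9.70, and how such reads were divided is not known.

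**Figure D1:**
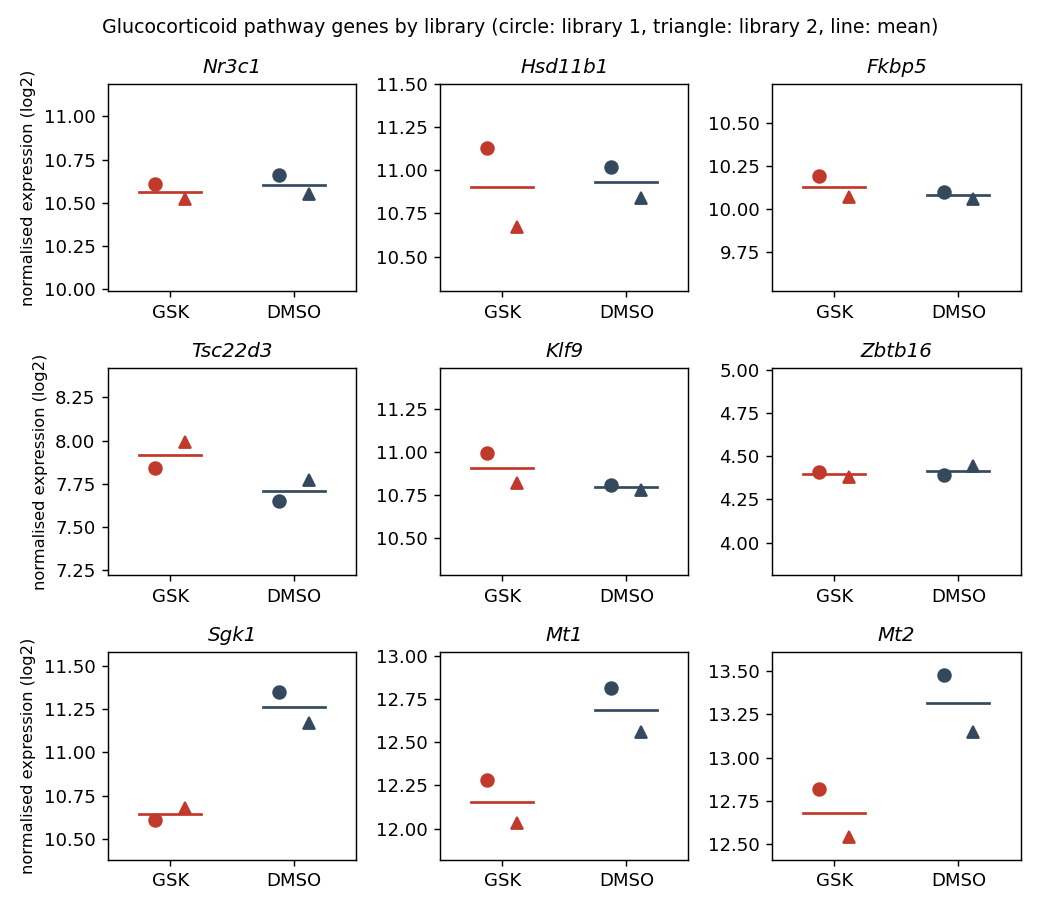
Normalised expression (log2, vertical axis) of each of the 9 genes in the GSK libraries (red, left) and DMSO libraries (dark, right); circles are library 1, triangles library 2 and lines the group means, and every panel spans 1.2 log2 units. Sgk1, Mt1 and Mt2 have both GSK libraries below both DMSO libraries by 0.49, 0.28 and 0.32, while the receptor Nr3c1 and its targets Fkbp5 and Zbtb16 overlap.

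Sgk1 was lower in GSK fibroblasts. Sgk1 (ENSMUSG00000019970, chromosome 10, 21882184 to 21999903) encodes serum- and glucocorticoid-regulated kinase 1, which regulates ion transport and cell survival. It was at 10.61 and 10.68 in GSK libraries, against 11.35 and 11.17 in DMSO libraries. The groups did not overlap, and the gap between them, 0.49, was larger than the gap within either group, 0.07 in GSK and 0.17 in DMSO. The means were 10.65 ± 0.05 in GSK and 11.26 ± 0.12 in DMSO (SD, n = 2 each), a difference of -0.61 ± 0.07, or 1.53-fold lower. Sgk1 was the only member of the 9 that limma called over all genes tested, beside 0.282% of all genes called, 0.131% lower. With the members chosen after their differences were known, this call is a description only. That call was kept under 5 of 11 alternatives, and was lost without DMSO library 1 (difference -0.53), without GSK library 1 (-0.58) and without GSK library 2 (-0.65), as well as with no filter on low values, after quantile normalisation and with a variance prior without trend.

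The metallothionein genes, which encode small cysteine-rich proteins that bind zinc and copper, had differences of about the same size as Sgk1. Mt2 (ENSMUSG00000031762, chromosome 8, 94172664 to 94173568) was at 12.82 and 12.54 in GSK libraries, against 13.48 and 13.15 in DMSO libraries. Mt1 (ENSMUSG00000031765, chromosome 8, 94179082 to 94180327) was at 12.28 and 12.03 in GSK libraries, against 12.81 and 12.56 in DMSO libraries. Neither gene's groups overlapped, but the gaps between groups, 0.32 for Mt2 and 0.28 for Mt1, were close to the gaps within groups, 0.29 in GSK and 0.34 in DMSO for Mt2, and 0.24 in GSK and 0.26 in DMSO for Mt1. The difference of Mt2 was -0.64 ± 0.13, or 1.55-fold lower, and that of Mt1 -0.53 ± 0.11, or 1.44-fold lower, and neither passed the threshold in the fit with the group as the only term. Both passed it with the replicate number as a block, and without DMSO library 2, at -0.80 for Mt2 and -0.66 for Mt1, and their differences were -0.47 and -0.40 without DMSO library 1. Mt2 exceeded Mt1 by 0.55 and 0.50 in GSK libraries and by 0.67 and 0.59 in DMSO libraries, so the pair kept close to the same ratio in every library. No stretch of 100 bases or more matched between Mt1 and Mt2 transcripts at 95% identity. The first exon of Mt2 overlaps the antisense transcript Gm45774 over 212 bases, and Gm45774, at 6.86, had a difference of 0.09.

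**Figure D2:**
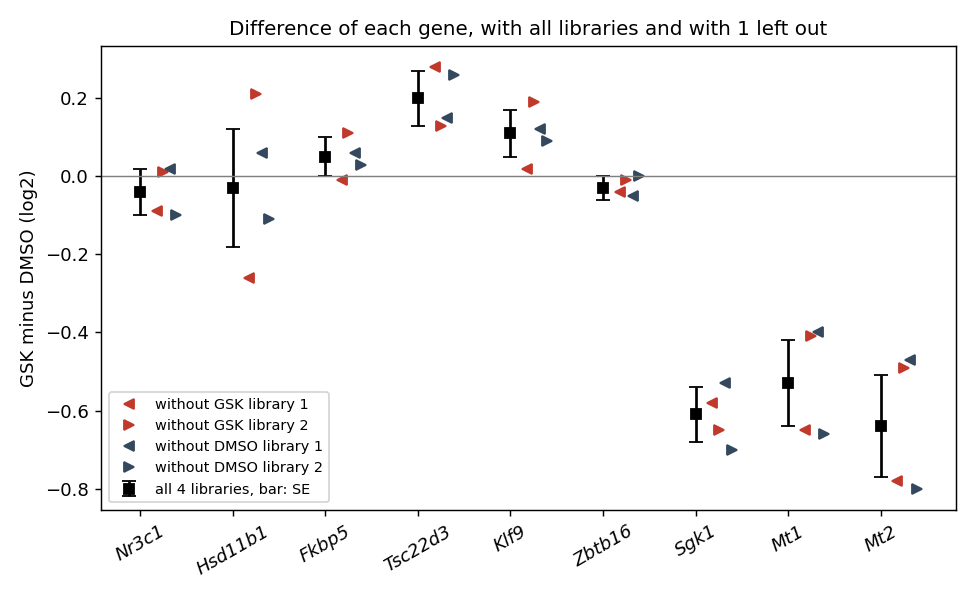
Difference of each gene (GSK minus DMSO, log2, vertical axis) with all 4 libraries (squares, bars are SE) and with 1 library left out (triangles). Sgk1, Mt1 and Mt2 stay between -0.80 and -0.40 in all of these, and Tsc22d3 and Klf9 stay above 0. Nr3c1, Hsd11b1 and Fkbp5 take both signs, and Zbtb16 lies between -0.05 and 0.00.

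Sgk1 did not have the profile of the receptor or of Fkbp5, Tsc22d3, Klf9 and Zbtb16, and lay close to the metallothionein genes. Centred on its own mean, Sgk1 was at -0.34 and -0.27 in GSK libraries and at 0.39 and 0.22 in DMSO libraries. The mean of Mt1 and Mt2 was at -0.16 and -0.42 in GSK libraries and at 0.44 and 0.14 in DMSO libraries. The median of the 8 other members stayed within 0.05 of 0, at 0.03 and -0.05 in GSK libraries and at 0.03 and -0.04 in DMSO libraries. The 8 others had a median difference of -0.03, beside a median of -0.0007 for all genes tested, with 5 negative and 3 positive, and Sgk1 lay 0.59 below that median. The likeness of 2 genes was measured as the Euclidean distance between their centred log2 values over the 4 libraries, a description with no test. Sgk1 was 0.24 from Mt1 and 0.28 from Mt2, but 0.59 from Nr3c1, 0.61 from Zbtb16, 0.68 from Fkbp5, 0.70 from Hsd11b1, 0.75 from Klf9 and 0.84 from Tsc22d3. Of 14547 other genes tested, 70 (0.481%) were closer to Sgk1 than Mt1 was and 100 (0.687%) closer than Mt2. Against this, 26.8% were closer than Nr3c1 and 96.7% closer than Tsc22d3. Genes with similar GSK minus DMSO differences lie close by this measure. The members were chosen with those differences known, so these shares are no independent evidence. Between the GSK libraries the order was reversed, with Sgk1 lower in library 1 and the mean of Mt1 and Mt2 lower in library 2. Among the rest, Fkbp5 and Klf9 were the closest pair of the 9 genes at 0.07, followed by Fkbp5 and Zbtb16, and Nr3c1 and Fkbp5, at 0.11 each, and Mt1 and Mt2 at 0.12. Genes that vary little lie close to each other by this measure whatever their direction. Over the 9 genes the GSK and DMSO libraries did not overlap in 5, 2 higher (Tsc22d3 and Klf9) and 3 lower in GSK, beside 48.6% of all genes tested (24.1% higher and 24.5% lower). The lower 3 each differed by at least 0.5, as did 0.557% of all genes tested in that direction.

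**Figure D3:**
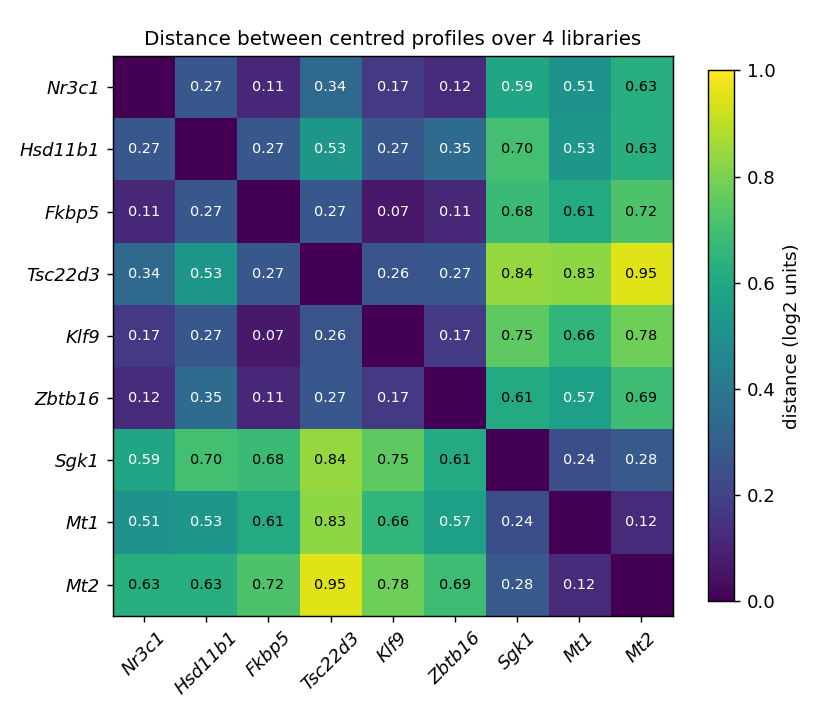
Distance between each pair of the 9 genes, as the Euclidean distance of their centred values over the 4 libraries (log2 units, colour scale from 0 to 1). Sgk1, Mt1 and Mt2 form a block with distances of 0.12 to 0.28, and each lies 0.51 or more from the other 6 genes.

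The genes whose profiles were most like those of Sgk1, Mt2 and Mt1 were then named from all genes tested. They were picked by distance over these same 4 libraries. A similar difference was thus built in by the choice, and their p-values are no separate evidence. The 3 nearest Sgk1 were Tnxb, the matrix glycoprotein tenascin X (distance 0.042), Plk2, a polo-like kinase (0.043), and Sbsn, suprabasin (0.078). Tnxb was at 13.17 and 13.21 in GSK libraries, against 13.92 and 13.76 in DMSO libraries, and it fell by 0.65 ± 0.07 (limma adjusted p = 0.0366). Sbsn fell by 0.64 ± 0.07 (0.0366), and Plk2, at -0.58 ± 0.07, missed the threshold (0.0543). The calls of Tnxb and Sbsn were lost without DMSO library 1 (differences -0.56 and -0.55), without GSK library 1 (-0.63 and -0.66) and without GSK library 2 (-0.67 and -0.63). The 3 nearest Mt2 were Atf3, a stress-induced transcription factor, Fgf7, a fibroblast growth factor, and Il6, an inflammatory cytokine, at distances of 0.065 to 0.088. Near Mt1 were Prelp, a small leucine-rich matrix proteoglycan, and F3, tissue factor, at 0.042 and 0.065. Of Atf3, Fgf7, Il6, Prelp and F3, none passed the threshold, with limma adjusted p of 0.0696 or more.

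Genes near Mt1 and Mt2 had differences close to 0. The pair lie 5.51 kb apart on chromosome 8, and Nudt21, Ogfod1, Bbs2, Gm45774 and Nup93, tested genes within 200 kb of them, had differences of -0.04 to 0.09, none called. Mt4, a metallothionein of stratified epithelium in the same cluster, was at 0.29 and 0.28 in GSK libraries and at 0.30 and 0.29 in DMSO libraries, below the filter. Mtf1, the zinc-sensing transcription factor that induces metallothionein genes, was at 8.72 and 8.68 in GSK libraries and at 8.60 and 8.69 in DMSO libraries, a difference of 0.05 ± 0.05. Of the 7 tested genes of metal and glutathione handling besides Mt1 and Mt2, none passed the threshold (limma; 3 had an unadjusted p under 0.05, beside 16.0% of all genes tested), and 6 had negative differences (median -0.10). Slc39a14 and Slc39a8, zinc importers, were at -0.18 ± 0.07 and -0.13 ± 0.05, and Gclm, a glutathione synthesis subunit, at -0.12 ± 0.05 (limma adjusted p = 0.302, 0.245 and 0.291). Slc39a14 was at -0.09 without DMSO library 1.

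Other genes of the pathway were counted in lists that leave the 9 members out and were chosen with earlier results of these data known. Of 93 such genes tested, 6 passed the threshold, 2 higher and 4 lower in GSK, beside 0.151% and 0.131% of all genes tested, and 5 of the 6 belong to the inflammatory genes described last. Of 4 genes of receptor and ligand supply none passed (1 had an unadjusted limma p under 0.05, beside 16.0% of all genes tested, median -0.02). The mineralocorticoid receptor gene Nr3c2, whose product also binds glucocorticoids, was at 4.64 ± 0.01 in GSK and 4.64 ± 0.03 in DMSO (SD, n = 2 each). Hsd11b2, which inactivates the hormone, was at 2.16 in both groups, below the filter. H6pd, which supplies the cofactor for Hsd11b1, was at 0.08 ± 0.05 (limma adjusted p = 0.498), and Abcb1b and Abcb1a, efflux pumps that can export steroids, were at -0.24 ± 0.07 and -0.04 ± 0.03 (0.164 and 0.52). Of 11 chaperone and nuclear import genes none passed (1 with an unadjusted p under 0.05, median -0.05), with Hsp90aa1 and Hsp90ab1, the chaperones that hold the receptor ready to bind hormone, at -0.25 ± 0.09 and -0.14 ± 0.07, and the cyclophilin Ppid at -0.10 ± 0.04 (limma adjusted p = 0.242, 0.392 and 0.323). Hsp90aa1 was at -0.16 without DMSO library 1 or GSK library 2, and Hsp90ab1 at -0.08 without GSK library 2. Of 12 coregulator genes none passed (0 with an unadjusted p under 0.05, median 0.02), with Ncor1, a corepressor, at 0.10 ± 0.04, Ep300, an acetyltransferase, at 0.06 ± 0.05 and Nrip1, a corepressor, at -0.06 ± 0.05 (limma adjusted p = 0.323, 0.558 and 0.57).

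Among 28 other genes known to be induced by glucocorticoids, 1 fell and none rose, beside 0.131% and 0.151% of all genes tested. There were 16 negative and 12 positive differences, from -0.70 to 0.27 (median -0.05). In 12 genes both GSK libraries lay below both DMSO libraries and in 3 above, beside 24.5% and 24.1% of all genes tested. The unadjusted limma p was under 0.05 for 10, beside 16.0% of all genes tested. This list too was chosen with earlier results of these data known, so its counts are a description only. The gene that fell was Angptl4, an inhibitor of lipoprotein lipase, at 11.57 and 11.51 in GSK libraries, against 12.31 and 12.17 in DMSO libraries. Both GSK libraries lay 0.60 or more below both DMSO libraries, and Angptl4 fell by 0.70 ± 0.06 (limma adjusted p = 0.0251); the call was lost without DMSO library 1 (difference -0.63). The clock gene Per1 was at 10.25 and 10.43 in GSK libraries, against 10.82 and 10.79 in DMSO libraries, a difference of -0.47 ± 0.07 (limma adjusted p = 0.0576). It passed without GSK library 2, at -0.56. Nfkbia, an inhibitor of NF-kB, was at 13.70 and 13.37 in GSK libraries, against 14.29 and 14.14 in DMSO libraries, a difference of -0.68 ± 0.12 (limma adjusted p = 0.0703). It passed without GSK library 1, at -0.85. These genes, like Sgk1, are also induced by other signals, including serum, hypoxia and inflammatory cytokines.

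Of 10 genes of the SGK1 kinase family and its substrates none passed the threshold of limma, beside 0.282% of all genes tested (median 0.00). In 2 the unadjusted limma p was under 0.05, beside 16.0% of all genes tested, so neither count sets these genes apart. Sgk3, a paralogue that is not known as a glucocorticoid target, was at 7.41 and 7.36 in GSK libraries and at 7.40 and 7.35 in DMSO libraries. Nedd4l, a ubiquitin ligase that SGK1 phosphorylates, was at 8.72 and 8.69 in GSK libraries and at 8.91 and 8.89 in DMSO libraries, a difference of -0.19 ± 0.04 (limma adjusted p = 0.116). Ndrg1 and Ndrg2, substrates of the kinase, were at -0.36 ± 0.14 and 0.06 ± 0.04 (0.28 and 0.53). Ndrg1 was at -0.18 without DMSO library 1 and at -0.21 without GSK library 2.

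Inflammatory genes that glucocorticoids are known to repress held most of the pathway's calls, in both directions. Of 22 tested, 3 fell (Lif, Ptgs2 and Il1rl1) and 2 rose (Mmp10 and Mmp13), beside 0.131% and 0.151% of all genes tested. For 18 the unadjusted limma p was under 0.05, beside 16.0% of all genes tested. Both GSK libraries lay below both DMSO libraries in 15 genes and above in 5, beside 24.5% and 24.1%. This list was chosen with earlier results of these data known, so its counts are a description and no independent evidence. The median difference was -0.50. Leaving out DMSO library 1 gave a median of -0.25, and leaving out GSK library 2 one of -0.26. Lif, a cytokine of the interleukin-6 family, was at 10.85 and 11.05 in GSK libraries, against 11.89 and 11.87 in DMSO libraries. Mmp13, a collagenase, was at 13.65 and 14.23 in GSK libraries, against 11.87 and 12.33 in DMSO libraries. Lif and the collagenase thus had opposite differences, -0.94 ± 0.07 and 1.83 ± 0.22 (limma adjusted p = 0.0199 and 0.046), and without DMSO library 1 neither passed, at -0.93 and 1.60. Ptgs2, the inducible prostaglandin synthase, and Mmp10, a stromelysin, likewise lost their calls without DMSO library 1, at -0.84 and 1.34 with it and -0.76 and 1.25 without it. Il1rl1, the interleukin-33 receptor, was at -0.79 ± 0.05 (limma adjusted p = 0.00896) and passed whichever library was left out.

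**Figure D4:**
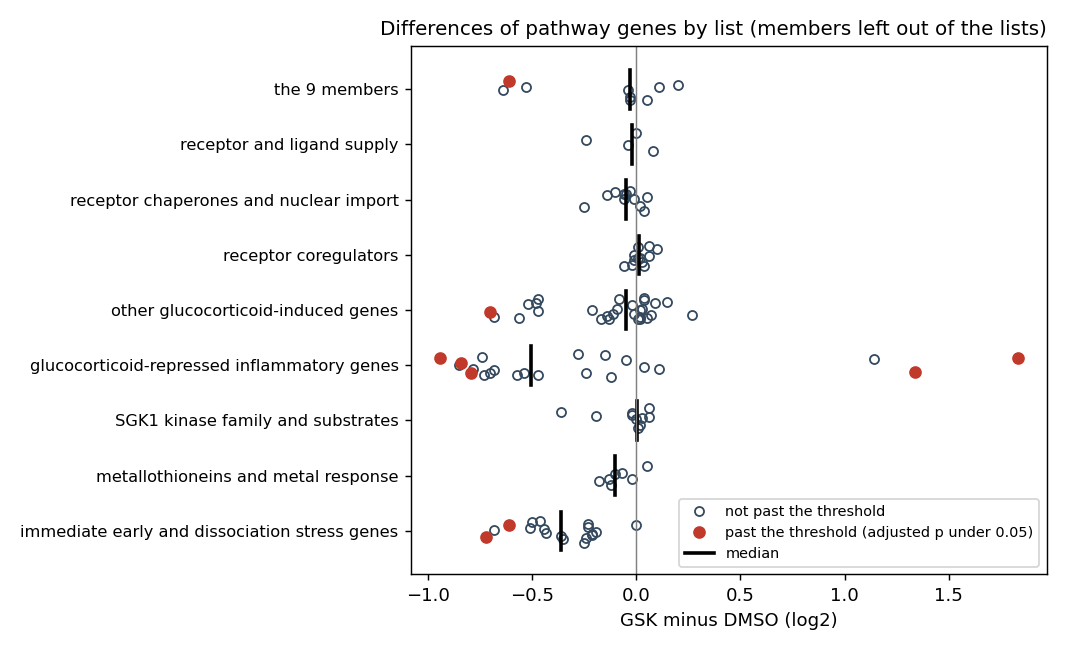
Difference of each gene tested (GSK minus DMSO, log2, horizontal axis) for the 9 members and for each list of other pathway genes; filled red points passed the threshold, open points did not, and black bars are medians. Most lists centre near 0, while the medians of the glucocorticoid-repressed inflammatory genes and of the immediate early and dissociation stress genes are -0.50 and -0.36.

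Immediate early and dissociation stress genes, which are induced quickly by growth factors, heat or tissue digestion, were mostly lower in GSK libraries, as Sgk1 and the metallothionein genes were. This list was drawn up after earlier results of these data were known and is no independent evidence of direction. Of 19 tested, 17 had both GSK libraries below both DMSO libraries, beside 24.5% of all genes tested. In 15 the unadjusted limma p was under 0.05, beside 16.0%. Past the threshold, 2 fell, beside 0.131% of all genes tested. They were the near-identical heat shock genes Hspa1a and Hspa1b, whose reads could be divided between them. No gene of the list passed without DMSO library 1 or without GSK library 2. The median difference was -0.36, and -0.21 without GSK library 2, and the mean over the list was 12.99 and 12.78 in GSK libraries, against 13.33 and 13.20 in DMSO libraries. The part of this shift in the values of Sgk1, Mt1 and Mt2 was not tested.

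Markers of other cells were also set beside these genes. The level summed over 9 pericyte and smooth muscle markers was 14.39 and 14.39 (log2 of the sum) in GSK libraries, against 13.98 and 14.26 in DMSO libraries, with 7 of 9 differences positive and none called by limma (5 had an unadjusted p under 0.05, beside 16.0% of all genes tested). Their median difference was 0.22, and 0.02 without DMSO library 1. The summed level of 6 pan-leukocyte markers was 11.84 and 11.19 in GSK libraries, against 10.75 and 10.52 in DMSO libraries, nearly all of it from the tetraspanin Cd53, while the defining marker Ptprc was at 3.91 and 3.77 in GSK libraries and at 3.77 and 3.77 in DMSO libraries. The 6 endothelial markers summed to 11.36 and 10.92 in GSK libraries, against 10.65 and 10.65 in DMSO libraries, mostly from Flt1, with the defining marker Tie1 at 1.70. The 7 epithelial or 4T1 markers summed to 8.93 and 8.72 in GSK libraries, against 9.12 and 9.06 in DMSO libraries, nearly all from the keratin Krt19. Their part in the difference of Sgk1, Mt1 and Mt2 was not tested. In bulk RNA, fewer cells of a type that expresses a gene and less RNA of it per cell cannot be told apart.

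Per kilobase of transcript, the metallothionein genes stood far above the rest. Levels between genes were compared on the log2 scale after subtraction of the log2 length, in kilobases, of the longest principal transcript. This takes the deposited values as not yet corrected for length, which the sources used here do not say. Without the subtraction, group means in GSK and DMSO were 12.68 and 13.32 for Mt2, 12.15 and 12.69 for Mt1, and 10.65 and 11.26 for Sgk1. Mt2 was highest, with a mean of 13.97 over the 4 libraries, followed by Mt1 at 13.29, Hsd11b1 at 10.22, Sgk1 at 9.66, Klf9 at 8.68, Fkbp5 at 8.16, Nr3c1 at 7.90, Tsc22d3 at 6.83 and Zbtb16 at 2.05. Within each group, neighbours in this order did not overlap. Across groups Mt1 reached 13.68 in DMSO library 1, above the 13.50 of Mt2 in GSK library 2. Hsd11b1 was at 10.43 and 9.97 in GSK libraries and at 10.32 and 10.14 in DMSO libraries, and Sgk1 at 9.32 and 9.39 in GSK libraries and at 10.05 and 9.88 in DMSO libraries, where the highest Sgk1 value exceeds the lowest GSK value of Hsd11b1. The order depends on the length used. With the length of all exons joined, Hsd11b1, Sgk1 and Klf9 came within 8.58 to 8.83 of each other, and Nr3c1, at 7.65, stood above Fkbp5 at 6.86.

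**Figure D5:**
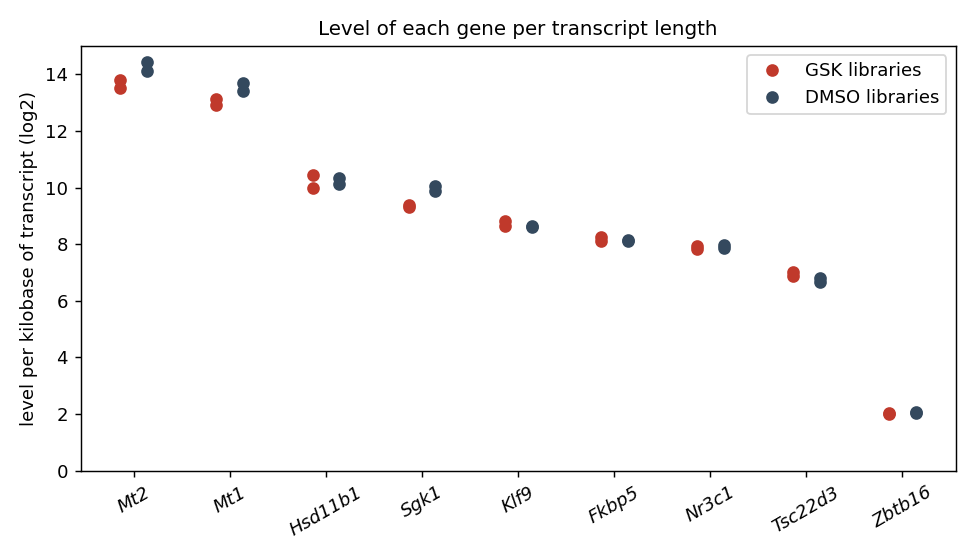
Level of each gene per kilobase of its longest principal transcript (log2, vertical axis) in GSK libraries (red, left) and DMSO libraries (dark, right), ordered by the mean. Mt2 and Mt1 lie at 12.90 or above in every library, and Zbtb16 lies near 2.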

How the data were processed

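RNA of fibroblasts was sequenced in 4 libraries, and the authors deposited normalised values on a log2 scale with 1 column per library. The log2 unit was read from the values, which run from -1.035 to 20.58 with library medians of 6.152 to 6.164. Bowtie2, RSEM 1.2.29, DESeq2 1.12.4, GRCh38 and mm10 are listed in the submitters' processing notes with no role for any, and the transformation is not given in the sources used here. Low genes barely vary (Epcam is at 0.32 in every library), so their differences may be understated. The depth is unknown.

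Symbols, coordinates and lengths came from GENCODE M21 on GRCm38 (22335 of 22456 identifiers matched). The deposited values entered limma 3.58.1 (R 4.3.3) as they stand, with no pseudocount. Genes whose mean reached log2 of 10 were kept, with the group as the only term, a variance prior with a trend on the mean, two-sided p-values and Benjamini-Hochberg adjustment over all genes tested. The test was checked on simulated data with independent libraries, which leaves out the shared deviation of same-numbered libraries described below. Folds are 2 to the power of the difference. Transcripts were compared with blastn 2.17.0, and figures drawn with matplotlib 3.10.9.

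The members, the lists and the naming rule were chosen with earlier results of these data known. The rule named the members, the 3 genes of each pathway list with the smallest p, every called gene of a list, and the 3 genes nearest to Sgk1 and to the 2 other members with the widest range, leaving out predicted genes and pseudogenes (1 gene so named is not reported here); Nr3c2, Hsd11b2, Sgk3, Mt4, Mtf1 and the marker genes Epcam, Ptprc and Tie1 were named after their values were seen. Alternatives were other filters, quantile normalisation, centring on the median, other variance priors, the replicate number as a block, and each library left out.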

Additional observations from a re-analysis of the deposited data

How the results depend on the processing

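The differences of Sgk1, Mt1, Mt2, Tsc22d3 and Klf9 kept their sign under all 11 alternatives, at -0.70 to -0.53, -0.66 to -0.40, -0.80 to -0.47, 0.13 to 0.28 and 0.02 to 0.19. Those of Nr3c1, Hsd11b1 and Fkbp5 took both signs, at -0.10 to 0.02, -0.26 to 0.21 and -0.01 to 0.11. Zbtb16 was at -0.05 to 0.00 over the 10 alternatives that kept it. Counts of calls depended on the settings; where no cause is given, the cause was not tested. All genes called were 41, and 1 with no filter on low values, 23 after quantile normalisation, 126 after centring each library on its median, 11 with a variance prior without trend, 138 with a robust prior, and 7 to 194 with 1 library left out. Members called were 1 (Sgk1), and 0 with no filter, after quantile normalisation and without trend, and 0 to 3 with 1 library left out. Other pathway genes called were 6, and 0 with no filter, 2 without trend and 1 to 16 with 1 library left out. The median difference of the 8 members other than Sgk1 was -0.06 to 0.06, and Sgk1 minus that median -0.70 to -0.52, with 1 library left out. The labels give both groups the replicate numbers 1 and 2 without saying what they share. Same-numbered libraries deviated together (r = 0.428 across 14548 genes, which are not independent). With the number as a replicate block 1374 genes, 4 members (Sgk1, Tsc22d3, Mt1 and Mt2) and 31 other pathway genes were called. With 1 library left out, the lone library of its group is assumed to vary like the others. The small number of libraries per group, 2, limits all of these values, and how depth limits them is unknown.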
